A study of Mus musculus with 2 samples.

Results

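The genes of prostaglandin synthesis, breakdown and reception were examined in Ebp1 knock out and wild type mouse embryo fibroblasts (MEFs). The set was taken as all probe sets annotated to a single symbol among 10 named genes, namely Ptgs1, Ptgs2, Ptges, Ptgis, Ptgds, Ptger2, Ptger4, Ptgfr, Pla2g4a and Hpgd. Of these, 9 had at least 1 such probe set, 19 probe sets in all, out of 18193 genes on the array. Ptgs1 had no probe set under its name in the annotation used and was not analysed here. The genes were chosen by their place in the pathway and after the signals and ratios of these same arrays had been seen, with the ratio of Ptgs2 in view, so their values are given as a description.

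The knock out MEFs came from Ebp1-/- mice, which carry a retroviral gene trap in intron 2 of Pa2g4, the mouse gene of Ebp1, and the wild type MEFs from mice without the trap. Both were derived from embryos of day 12.5, grown in medium with serum and harvested at passage 2, and the strain was kept on a mixed C57BL/6 and 129SvEvBrd background. The trap lets a fusion of the very start of Ebp1 with a neomycin marker be made. Each genotype has a single array, so differences have no replicate check, and signals carry neither an error nor a p-value. The sources used here do not say how many embryos went into each culture.

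Prostaglandins are short-lived lipid signals made from arachidonic acid. A phospholipase frees the fatty acid from membranes, a cyclooxygenase turns it into prostaglandin H2, and terminal synthases convert this into prostaglandin E2, prostacyclin, prostaglandin D2 and related products. These leave the cell and act on G protein-coupled receptors of the same or neighbouring cells until they are taken up and oxidized. Fibroblasts are known as producers of prostaglandin E2 during wound repair and inflammation, when the inducible cyclooxygenase gene Ptgs2 is switched on by serum, growth factors and cytokines.

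Signals are linear MAS5 values in intensity units, scaled by the authors so that arrays share 1 target level. Their median was 71.6 for knock out and 66.5 for wild type MEFs, and the share of probe sets under 100 was 57.1% for knock out and 57.9% for wild type MEFs. A signal under 100 was treated as low, and a gene was counted as apart when its signal was 500 or more on either array and the signals differed over 2-fold. Each gene is reported by its brightest probe set, the 1 with the highest mean log2 signal. The paper found no Ebp1 transcript by RT-PCR and no Ebp1 protein by Western blot in knock out MEFs. On these arrays Pa2g4 still had 1178 in knock out MEFs, against 1835 in wild type MEFs. Its log2 ratio (knock out to wild type) of -0.64 was unremarkable. The middle 95% of genes whose higher signal was between 1000 and 2000 ran between -0.72 and 0.63. All 5 of the Pa2g4 probe sets were lower in the knock out MEFs. Where these probe sets lie relative to the trap is not known here, so they check the labels only in part. The 9 hybridization spike-in probe sets, which carry bacterial and phage sequence added in fixed amounts, had 1.31 times the signal on the array of knock out MEFs. A scaling to them lowers every log2 ratio below by 0.39.

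Ptgs2 and Pla2g4a were the only genes of the set that reached 500, and they are neighbouring protein-coding genes on chromosome 1. The first listed RefSeq window around each start is shown because these are the promoters of the pair (build GRCm38.p6). Each runs from 250 bases before the annotated start to 50 bases after it, on the strand of the gene. The Ptgs2 window is chr1:150099781-150100080 on the plus strand and that of Pla2g4a is chr1:149961241-149961540 on the minus strand. Capitals mark matches to 4 motifs searched on both strands, TTGCGNAA (C/EBP type), CGTCA (cAMP response element core), CACGTG (E-box) and TATAA (TATA box).
Ptgs2: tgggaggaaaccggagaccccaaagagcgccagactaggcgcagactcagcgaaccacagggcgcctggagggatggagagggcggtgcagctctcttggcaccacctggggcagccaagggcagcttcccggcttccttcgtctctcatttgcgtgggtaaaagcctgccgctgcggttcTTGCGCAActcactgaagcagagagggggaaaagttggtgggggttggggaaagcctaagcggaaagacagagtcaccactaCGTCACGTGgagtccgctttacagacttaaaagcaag
Pla2g4a: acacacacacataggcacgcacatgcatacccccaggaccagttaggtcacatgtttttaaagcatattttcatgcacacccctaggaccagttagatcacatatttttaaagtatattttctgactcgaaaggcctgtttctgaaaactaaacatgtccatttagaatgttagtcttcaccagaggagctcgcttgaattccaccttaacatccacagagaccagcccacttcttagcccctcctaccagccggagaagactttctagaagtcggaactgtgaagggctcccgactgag

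The Ptgs2 window held the C/EBP type motif at bases -69 to -62, the cAMP response element core at bases 14 to 18 and the E-box at bases 17 to 22, counted with the annotated start as base 1. The last 2 motifs overlap. None of the 4 was found in the Pla2g4a window shown. Window 2 of Pla2g4a, not shown, held TATAA at bases -198 to -194, and on the other strand at bases -199 to -195. Of 9 genes of the set with a window (Ptgs1 among them, Ptgis not), taking the first window of each, Ptgs2 was the only one with any of the first 3, and Hpgd was the only one with TATAA. Among all 32851 promoter windows of this length, TTGCGNAA was found in 0.798%, CGTCA in 20.8%, CACGTG in 7.15% and TATAA in 24.9%. A match is a description of the letters, not of a bound site.

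Ptgs2 encodes cyclooxygenase-2, the inducible enzyme that commits arachidonic acid to prostaglandins. The gene lies at chr1:150100031-150108234. Its brightest probe set read 3418 in knock out MEFs, against 1172 in wild type MEFs, a log2 ratio (knock out to wild type throughout) of 1.54 or 2.92-fold. The second probe set, designed to the same transcript, had 613 in knock out and 182 in wild type MEFs, a log2 ratio of 1.75 or 3.36-fold. Both probe sets were thus high in the knock out MEFs, and both were over 100 on each array. In RNA from whole cultures, more cells of a type and more RNA per cell cannot be told apart. Of 1018 genes that reached 2000, 5 (0.491%) were over 2-fold higher in knock out MEFs, Ptgs2 among them. The middle 95% of log2 ratios of those 1018 genes ran between -0.60 and 0.53. Ptgs2 reached 2000 on the knock out array only. It was also chosen with its ratio in view, so nothing is read from its place among these genes.

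Pla2g4a encodes the cytosolic phospholipase A2 that frees arachidonic acid from membranes in response to calcium. The gene lies at chr1:149829618-149961290. It had 1425 in knock out and 974 in wild type MEFs on its single probe set, a log2 ratio of 0.55 or 1.46-fold. This is within 2-fold, and inside the middle 95% of the 1495 genes whose higher signal was between 1000 and 2000, which ran between -0.72 and 0.63. Pla2g4a starts 138.7 kb from the start of Ptgs2 and is transcribed away from it.

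**Figure D1:**
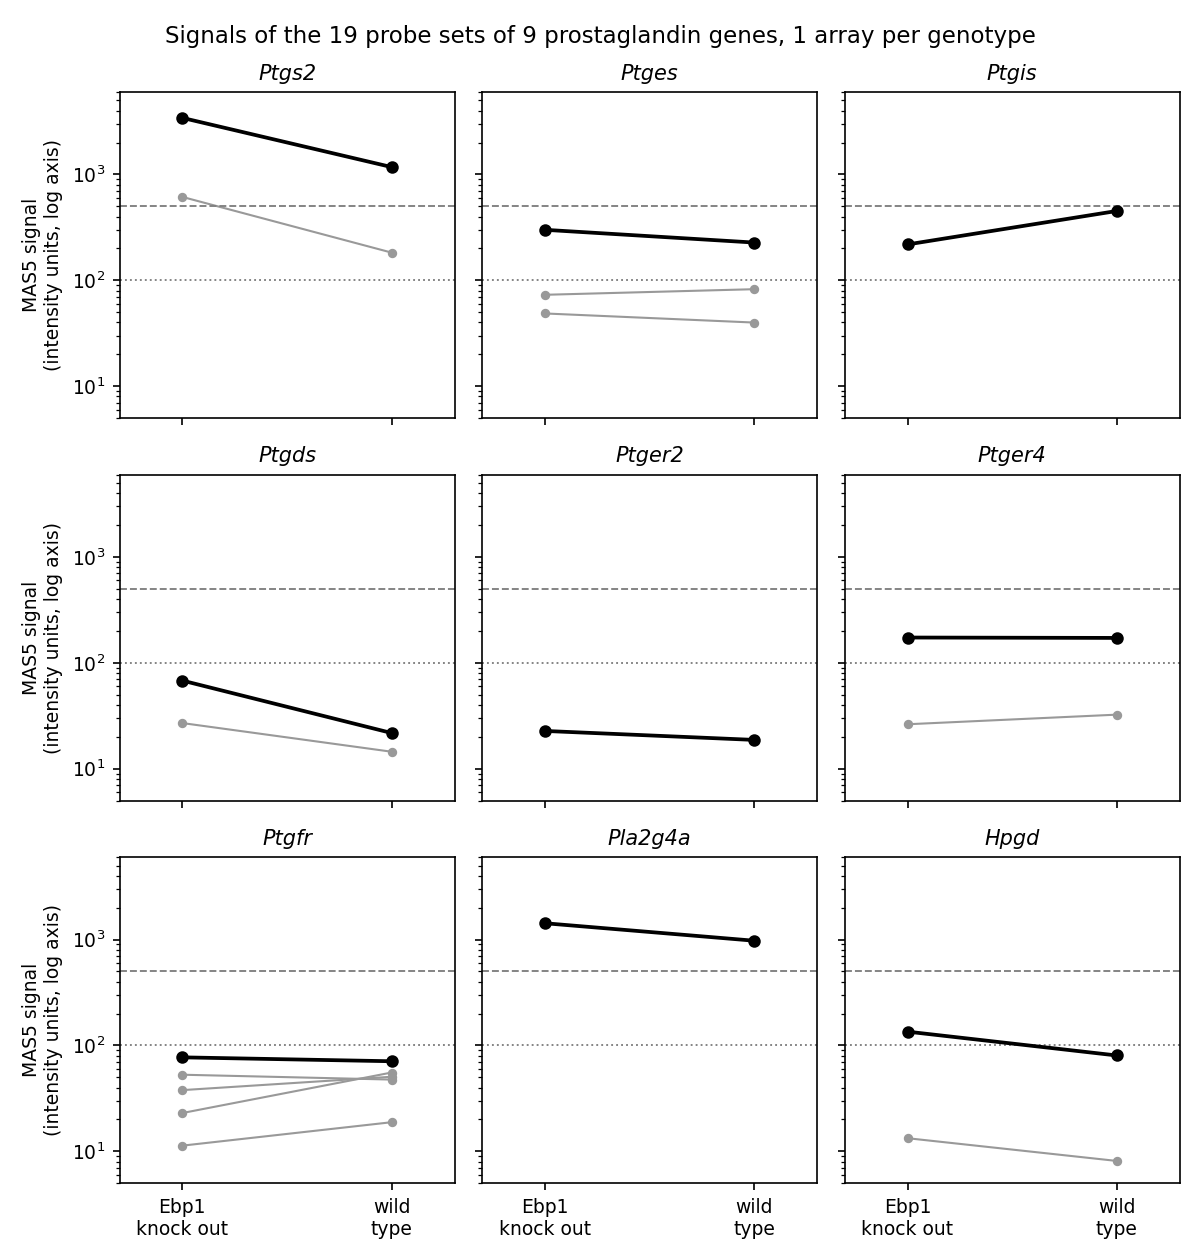
Signals in intensity units (log axis) of each of the 19 probe sets on the knock out array (left) and the wild type array (right), with the brightest probe set of a gene in black and the others in grey, the dotted line at 100 and the dashed line at 500. Both probe sets of Ptgs2 are higher and the probe set of Ptgis is lower in knock out MEFs, while Ptgds, Ptger2 and Ptgfr stay under 100 on both arrays.

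The genes around Ptgs2 were looked at after the values of the pair had been seen. In the stretch reaching 1500 kb to either side, 13 genes had a probe set and 9 of these reached 100. Pla2g4a was the only measured gene on its side of Ptgs2, and all the others lay on the other side. Apart from Ptgs2 and Pla2g4a, the other 7 had log2 ratios from -0.81 to 0.12, and none was over 2-fold apart. The lowest was Hmcn1, which encodes the extracellular matrix protein hemicentin-1, at 204 in knock out and 358 in wild type MEFs. The nearest of the 7, Odr4, had 435 in knock out and 501 in wild type MEFs (log2 ratio -0.20).

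**Figure D2:**
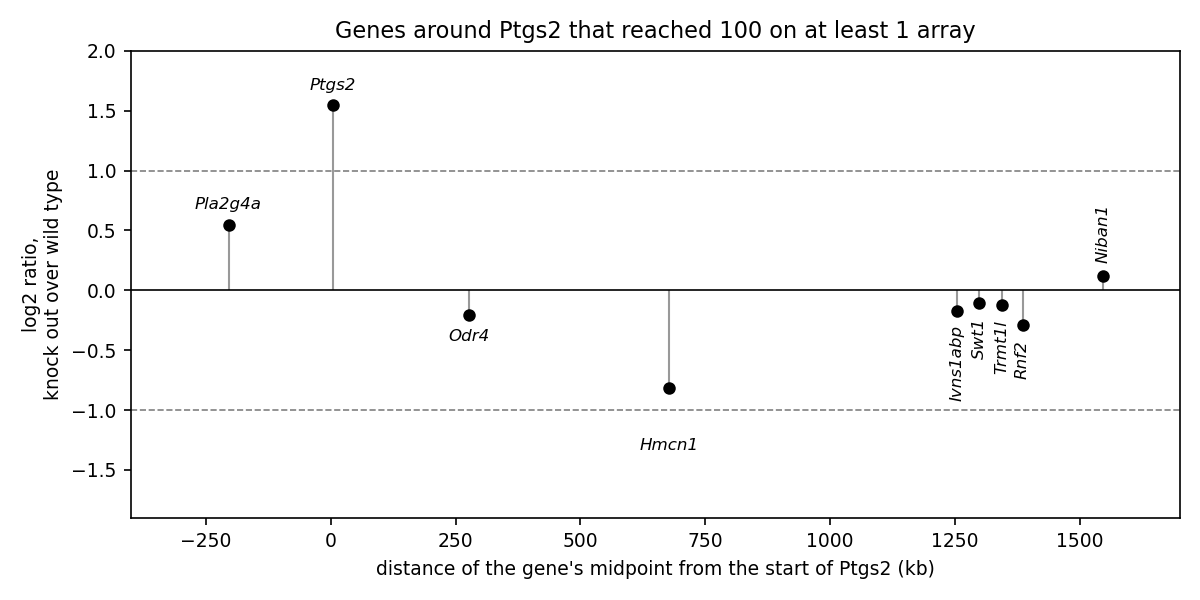
Log2 ratio (knock out to wild type) (vertical axis) for the 9 genes reaching into 1500 kb on either side of Ptgs2 that reached 100, placed by the distance of their midpoint from the start of Ptgs2 in kb, with dashed lines at a 2-fold ratio. Ptgs2 at 1.54 and Pla2g4a at 0.55 lie above the other 7 genes, which run from -0.81 to 0.12.

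The terminal synthases went both ways. Ptgis encodes prostacyclin synthase, a cytochrome P450 enzyme that makes the vasodilator prostacyclin. The gene lies at chr2:167203194-167252150. It had 218 in knock out MEFs, against 452 in wild type MEFs, on its single probe set (log2 ratio -1.05, 2.07-fold lower). It stayed under 500 on both arrays and so was not counted as apart at the main minimum, and with 50 added to each signal it was within 2-fold (-0.90). Of 5539 genes whose higher signal was between 100 and 500, 2.73% were over 2-fold lower in knock out MEFs. The middle 95% of these genes ran between -1.04 and 0.96, so the value of Ptgis lay at the lower edge of that range.

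Ptges encodes the microsomal prostaglandin E synthase that acts together with cyclooxygenase-2. The gene lies at chr2:30889471-30931020. Its brightest probe set had 299.6 in knock out and 227 in wild type MEFs, a log2 ratio of 0.40, which was 0.01 after spike-in scaling. Its other probe sets were under 100 on both arrays, at 72.9 in knock out and 82.4 in wild type MEFs for one and 48.6 in knock out and 39.9 in wild type MEFs for the other, and lay on both sides of 0. Ptgds encodes the lipocalin-type prostaglandin D synthase, known from the leptomeninges and the brain. It had 68.0 in knock out and 21.7 in wild type MEFs, and its other probe set had 27.0 in knock out and 14.5 in wild type MEFs. Both signals of both probe sets were low, so no fold is given for this gene. Ratios of low genes varied widely, with a standard deviation of the log2 ratio of 1.05 across the 7640 genes under 100 on both arrays and 0.38 across the 1018 genes that reached 2000.

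Among the receptors, only Ptger4 reached 100. Ptger4 encodes the EP4 receptor, which raises cAMP when prostaglandin E2 binds. The gene lies at chr15:5233399-5244187. It had 173 in knock out and 172 in wild type MEFs (log2 ratio 0.01, below 0 after quantile normalization, median centring or scaling to the spike-ins), and its other probe set was low at 26.3 in knock out and 32.4 in wild type MEFs. Ptger2 encodes the EP2 receptor, which also couples to cAMP, and had 22.7 in knock out and 18.7 in wild type MEFs on its single probe set. Ptgfr encodes the receptor of prostaglandin F2 alpha, which signals through calcium. Its 5 probe sets ran from 11.3 to 77.1 in knock out and from 18.8 to 70.9 in wild type MEFs, 2 of them higher and 3 lower in knock out MEFs, all at low signal.

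Hpgd encodes the 15-hydroxyprostaglandin dehydrogenase, the first enzyme of prostaglandin breakdown. The gene lies at chr8:56294552-56321046. Its brightest probe set had 135 in knock out MEFs and a low signal of 80.3 in wild type MEFs, at least 1.35-fold higher when the low signal is set to 100. Its other probe set was low on both arrays, at 13.3 in knock out and 8.10 in wild type MEFs. Hpgd was the gene of the set just above the limit of 100 and Ptgfr the one just below it, with 77.1 in knock out and 70.9 in wild type MEFs on its brightest probe set.

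Of the 9 measured genes, 2 reached 500, and 1 of them, Ptgs2, was over 2-fold higher and none lower in knock out MEFs. Of all 5014 genes that reached 500, 1.81% were over 2-fold apart (0.758% higher and 1.06% lower). With a minimum of 100, 6 genes of the set were left, with Ptgs2 over 2-fold higher, Ptgis over 2-fold lower and 4 within 2-fold, against 3.52% of 10553 genes over 2-fold apart (1.58% higher and 1.93% lower). The median log2 ratio of these 6 genes was 0.47, beside -0.06 for all genes that reached 100. The remaining 3 genes, Ptgds, Ptger2 and Ptgfr, were under 100 on both arrays. Since the genes were chosen with these arrays known, nothing is read from the shares.

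**Figure D3:**
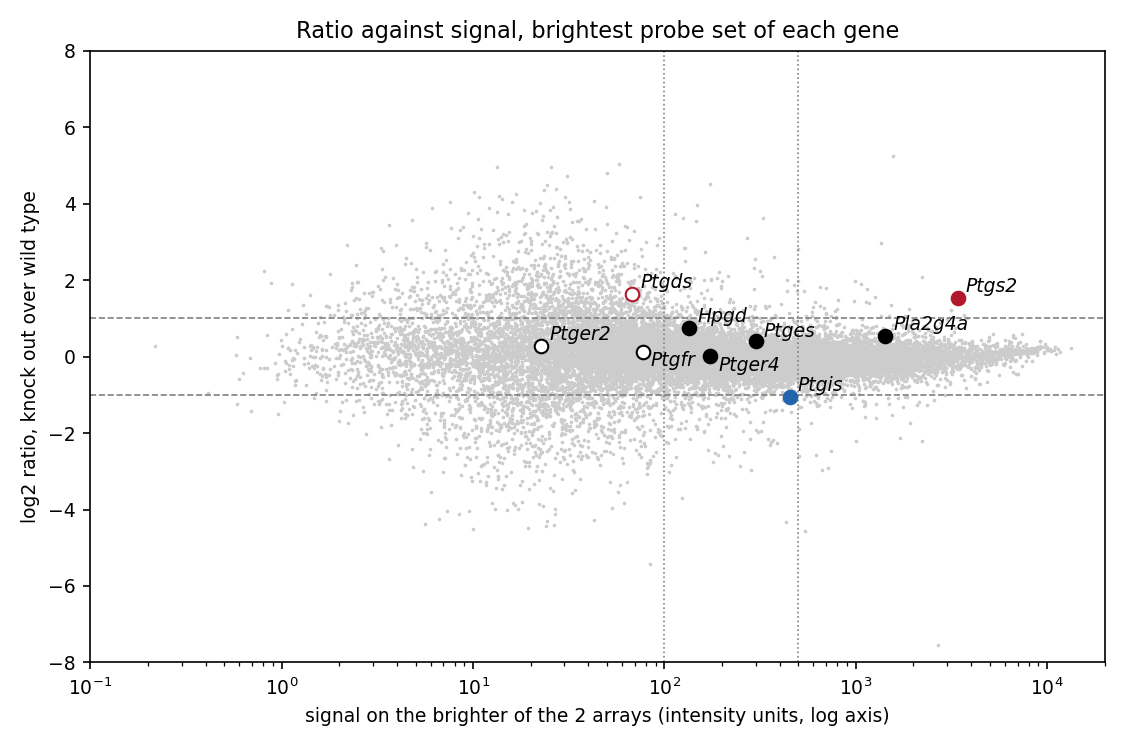
Log2 ratio (knock out to wild type) (vertical axis) against the signal on the brighter array (horizontal log axis, intensity units) for the brightest probe set of 18193 genes (grey), with the 9 prostaglandin genes marked, open where under 100 on both arrays, red where over 2-fold higher and blue where over 2-fold lower, and dotted lines at 100 and 500. Ptgs2 lies at 1.54 where the grey points are narrow and Ptgis at -1.05 near their lower edge.

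Ptgs2 stayed above 0 and Ptgis below 0 under the scalings tried. Median centring and spike-in scaling shift every gene alike by less than 1.5-fold, so they could not have turned either ratio. Ptgs2 had a log2 ratio of 1.44 after median centring, 1.55 after quantile normalization, 1.54 after loess and 1.15 after scaling to the spike-ins. Ptgis had -1.16 after median centring, -1.05 after quantile normalization, -1.02 after loess and -1.44 after scaling to the spike-ins. Pla2g4a stayed above 0 as well, with its lowest value, 0.16, after scaling to the spike-ins. Hpgd stayed at 0.36 or above by its measured ratio, which is against a low signal in wild type MEFs and so is not a bound.

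**Figure D4:**
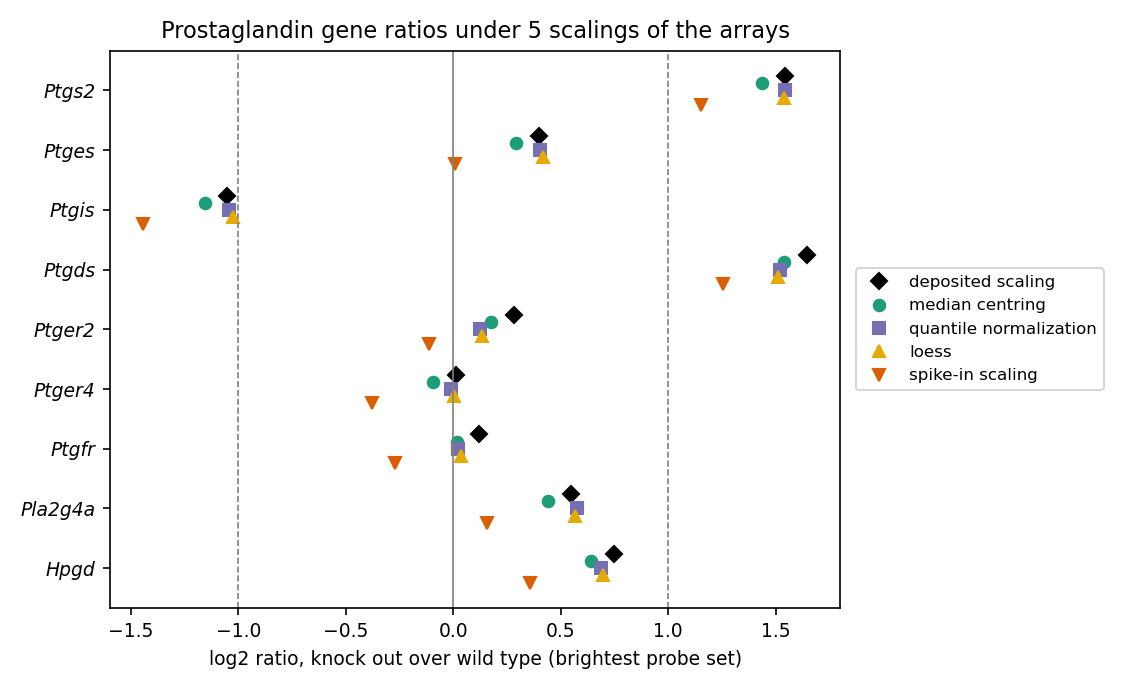
Log2 ratios (knock out to wild type) (horizontal axis) of the 9 prostaglandin genes under the deposited scaling and 4 others, with dashed lines at a 2-fold ratio. Ptgs2 stays above 1 and Ptgis below -1 under all 5, while Ptger2, Ptger4 and Ptgfr change sign with spike-in scaling.

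The rest of the eicosanoid pathway was described from lists of 64 other genes, of which 57 had a probe set, 28 reached 100 and 14 reached 500. Of these 14, none was over 2-fold higher and 1, Mgll, was over 2-fold lower. Among all 5014 genes that reached 500, 0.758% were higher and 1.06% lower by this measure. The median log2 ratio of the 14 was 0.07, beside -0.05 for all genes that reached 500. Mgll reached 500 in wild type MEFs only, and the count was 0 with 500 required on both arrays. Mgll encodes monoacylglycerol lipase, which releases arachidonic acid from the endocannabinoid 2-arachidonoylglycerol. It had 395 in knock out MEFs, against 933 in wild type MEFs (log2 ratio -1.24), and its other 2 probe sets over 100 were also lower (-1.57 and -0.78).

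The other prostanoid synthases and receptors that reached 100 were within 2-fold. In the list of other synthases, Cbr3, a carbonyl reductase gene, had 704 in knock out and 528 in wild type MEFs (0.42), and Cbr1, whose enzyme can reduce prostaglandin E2, had 433 in knock out and 519 in wild type MEFs (-0.26). In the list of other receptors, Ptgfrn, which encodes a protein that binds the Ptgfr receptor and restrains it, had 1110 in knock out and 1461 in wild type MEFs (-0.40). The thromboxane receptor gene Tbxa2r had 301 in knock out and 314 in wild type MEFs (-0.06), and the remaining 5 receptors of that list were under 100 on both arrays. Of the genes of transport and further metabolism, all 4 measured reached 100 and none was over 2-fold apart on its brightest probe set. Ptgr1, which encodes a reductase that inactivates prostaglandins and leukotriene B4, had 1396 in knock out and 1005 in wild type MEFs (0.47), and the uptake transporter gene Slco2a1 had 318 in knock out and 261 in wild type MEFs (0.29), while its 3 probe sets over 100 ran from 0.29 to 1.90.

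Of 12 genes of other phospholipases and arachidonate handling that reached 100, 9 had a log2 ratio above 0 and 3 below. The median was 0.35, beside -0.06 for all genes that reached 100. Some of the 9 reached 100 on the knock out array only, and with low signals set to 100 the median was 0.20. All 9 were within 2-fold on their brightest probe set. Anxa1, which encodes the glucocorticoid-induced phospholipase inhibitor annexin A1, had 9196 in knock out and 6909 in wild type MEFs (0.41). Plaa, which encodes a phospholipase A2-activating protein, had 1258 in knock out and 1070 in wild type MEFs (0.23), while its 3 probe sets over 100 ran from -0.20 to 2.32. Spike-in scaling, which takes 0.39 from each log2 ratio, puts the brightest probe set of Plaa and the median of the list below 0.

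The lipoxygenase and epoxide branches were mostly low. Of 12 leukotriene and lipoxygenase genes with a probe set, 9 were under 100 on both arrays. Lta4h, which encodes leukotriene A4 hydrolase, had 944 in knock out and 1010 in wild type MEFs (-0.10), and Alox5, which encodes 5-lipoxygenase, had 141 in knock out and a low 73.0 in wild type MEFs. In the cytochrome P450 and epoxide branch, Ephx2, the gene of soluble epoxide hydrolase, had 202 in knock out and a low 89.0 in wild type MEFs, at least 2.02-fold higher. Cyp4f13, a P450 gene, had 107 in knock out and a low 51.2 in wild type MEFs, at least 1.07-fold higher. Ephx1, the microsomal epoxide hydrolase gene, had 2843 in knock out and 2783 in wild type MEFs (0.03), and the remaining 4 genes of this branch were under 100 on both arrays.

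**Figure D5:**
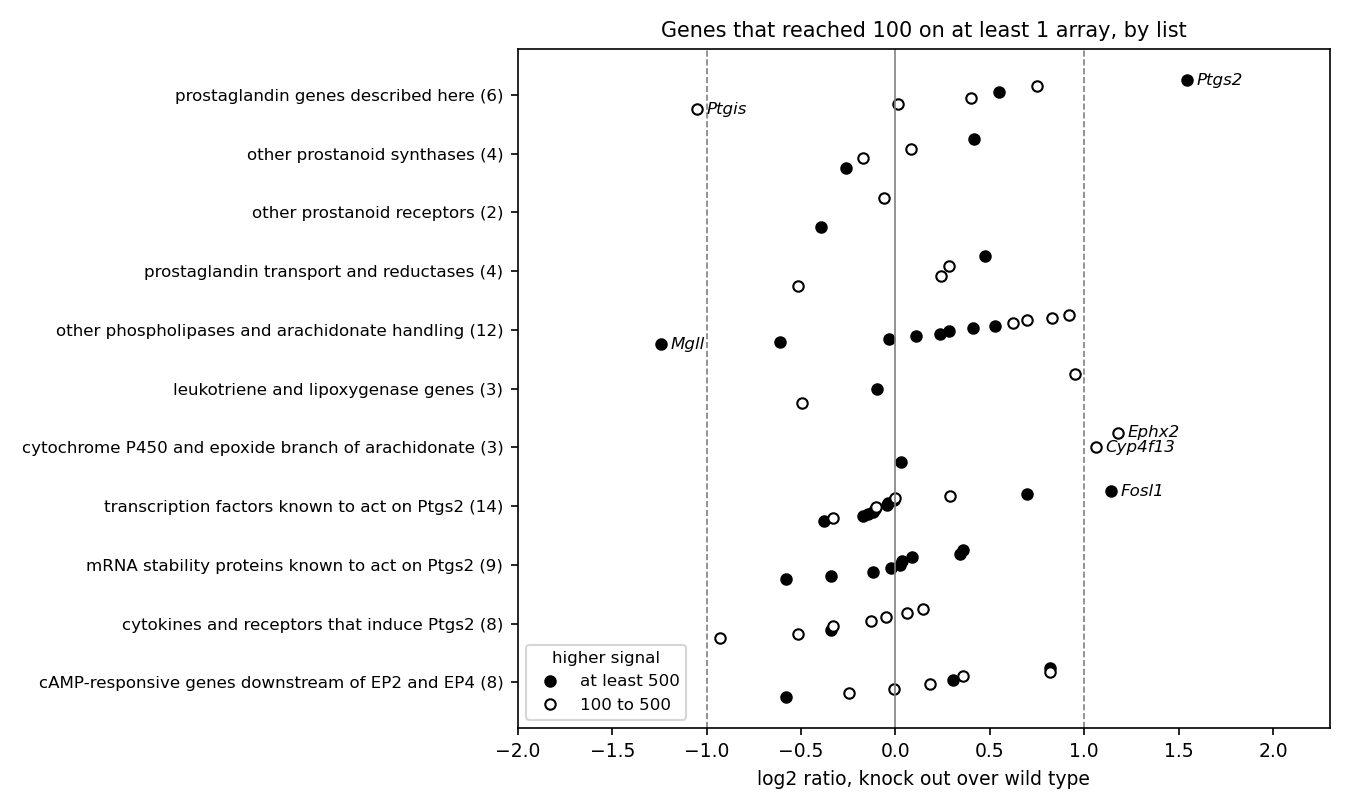
Log2 ratios (knock out to wild type) (horizontal axis) for the genes of each list that reached 100 on at least 1 array (their number in parentheses), filled where the higher signal was at least 500, with dashed lines at a 2-fold ratio and names for genes beyond it. Beside Ptgs2 and Ptgis, the genes beyond 2-fold are Mgll on the lower side and Ephx2, Cyp4f13 and Fosl1 on the higher side, with Cyp4f13 plotted by its measured ratio against a low wild type signal and only at least 1.07-fold higher as a bound.

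Genes known to act on Ptgs2, or to answer the cAMP signal of EP2 and EP4, were described in the same way. Of 47 with a probe set, 23 reached 500, and 1 of these, Fosl1, was over 2-fold higher and none lower. The shares over all 5014 genes that reached 500 were 0.758% higher and 1.06% lower. The median log2 ratio of the 23 was -0.04. Fosl1 reached 500 in knock out MEFs only, and the count was 0 with 500 required on both arrays. Fosl1 encodes an AP-1 subunit and had 695 in knock out and 315 in wild type MEFs (1.14, or within 2-fold after spike-in scaling). Of the other AP-1 subunits of the list, named after their values were seen, Jun had 1064 in knock out and 656 in wild type MEFs (0.70, and 0.10 on its other probe set over 100), and Fos had 384 in knock out and 483 in wild type MEFs (-0.33). Cebpb, a C/EBP factor gene, had 1702 in knock out and 1709 in wild type MEFs (-0.01, and 0.58 on its other probe set over 100). The immediate early gene Egr1 had 3121 in knock out and 3370 in wild type MEFs (-0.11).

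The 9 measured genes of proteins that bind AU-rich or other elements of Ptgs2 mRNA, or act with them, all reached 500, and none was over 2-fold apart on its brightest probe set (median 0.02). Named after their values were seen, Khsrp, which encodes an mRNA decay factor, was -0.58 on its brightest probe set and ran from -1.08 to -0.37 over its 3 probe sets that reached 100, and Tia1 was 0.04 on its brightest and ran from -0.11 to 1.48 over its 5. The brightest were Ago2, a microRNA effector, with 1455 in knock out and 1843 in wild type MEFs (-0.34), and Hnrnpd, with 1519 in knock out and 1650 in wild type MEFs (-0.12). Zfp36, which encodes the mRNA decay factor tristetraprolin and was named after its values were seen, had 721 in knock out and 570 in wild type MEFs (0.34, below 0 after spike-in scaling).

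Of the cytokines and receptors that induce Ptgs2, 8 reached 100 and each of these encodes a receptor or a receptor subunit. The 4 ligand genes of the list, Il1a, Il1b, Tnf and Il6, were under 100 on both arrays, between 4.99 and 81.8 in knock out and between 10.5 and 93.6 in wild type MEFs. None of the 8 was over 2-fold apart (median -0.23). Tnfrsf1a, a receptor gene of tumour necrosis factor, had 1138 in knock out and 1442 in wild type MEFs (-0.34), and Il17ra, a receptor gene of interleukin 17, had 306 in knock out and 317 in wild type MEFs (-0.05). The 2 subunits of the interleukin 1 receptor were named after their values were seen. Il1rap had 289 in knock out and 317 in wild type MEFs (-0.13, and 0.76 on its other probe set over 100), and Il1r1 had 189 in knock out and 361 in wild type MEFs (-0.93).

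Of the cAMP-responsive genes, 8 reached 100 and none was over 2-fold apart on its brightest probe set (median 0.24, below 0 after spike-in scaling). Dusp1, which encodes a MAPK phosphatase, had 1752 in knock out and 994 in wild type MEFs (0.82), and Nr4a1, an orphan nuclear receptor gene, had 1204 in knock out and 973 in wild type MEFs (0.31). Has2, the hyaluronan synthase gene, named after its values were seen, had 296 in knock out and 168 in wild type MEFs (0.82), and its other probe set over 100 was at 1.16.

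Markers of fibroblasts and of other cells that can express prostaglandin genes were checked beside these values. A summed signal takes all markers of its list that had a probe set, those under 100 among them. Of 12 fibroblast markers 11 reached 500, among them Col1a1, Col1a2 and Vim, and their summed signal was 61062 in knock out and 57955 in wild type MEFs. Of these 11, 5 had a log2 ratio above 0 and 6 below. Pdgfra, a growth factor receptor gene, was over 2-fold lower, with 201 in knock out and 506 in wild type MEFs (-1.33), while its other 2 probe sets were under 100 on both arrays. Pdgfrb had 1952 in knock out and 3098 in wild type MEFs (-0.67), and Thy1 had 2784 in knock out and 4173 in wild type MEFs (-0.58). Of 8 epithelial markers 3 reached 100, and their summed signal was 1940 in knock out and 638 in wild type MEFs. The largest part of both sums is Epcam, which had 1350.5 in knock out and 174 in wild type MEFs on 1 probe set. The name of that probe set ends in _x_at, a type left out in 1 of the alternatives. Its other probe set was low, with 4.07 in knock out and 5.81 in wild type MEFs, so the difference between the sums rests mostly on the _x_at probe set. Krt19, a keratin gene, had 197 in knock out and a low 88.0 in wild type MEFs, at least 1.97-fold higher, and Krt5 had 108 in knock out and 138 in wild type MEFs (-0.35). Of the other defining genes, Cdh1 had 19.5 in knock out and 11.5 in wild type MEFs, Krt8 had 91.9 in knock out and 73.5 in wild type MEFs, and Krt18 had 99.7 in knock out and 89.4 in wild type MEFs, so all 3 were under 100 on both arrays. Of 8 macrophage markers 3 reached 100 (summed signal 942 in knock out and 1151 in wild type MEFs). Of these 3, Csf1r had 385 in knock out and 366 in wild type MEFs (0.07). Adgre1 had 154 in knock out and 146 in wild type MEFs (0.08), and Lyz2 had 235 in knock out and 357 in wild type MEFs (-0.60). Ptprc was low on both arrays, at 16.4 in knock out and 26.2 in wild type MEFs. All 6 mast cell markers were under 100 on both arrays. Of 7 endothelial markers 1, Kdr, reached 100, with 156 in knock out and 101 in wild type MEFs (0.63). The summed signal of all 7 was 325 in knock out and 306 in wild type MEFs. Of 7 markers of the leptomeninges, a tissue known for Ptgds, 4 reached 100, with a summed signal of 1303 in knock out and 1368 in wild type MEFs. Foxc1 gave the largest part of this sum, with 668 in knock out and 569 in wild type MEFs, and Aldh1a2 had a low 34.6 in knock out and 127 in wild type MEFs, at least 1.27-fold lower. Of 8 muscle markers 5 and of 6 neural markers 3 reached 100, and none of these was over 2-fold apart on its brightest probe set. The part of these cells in the values of the prostaglandin genes was not tested.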

How the data were processed

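Total RNA of MEFs was labelled with biotin and hybridized to 1 Affymetrix array for each genotype. The deposited table gives linear intensity values from MAS5, which the authors scaled to 1 target level per array. The study's methods name a human array, but the identifiers match a mouse array. Leaving out 64 control probe sets, 45037 remained: 34945 had 1 gene symbol, 932 had several and 9160 had none here. For 34741 of these probe sets the Entrez identifier was found in the GRCm38.p6 annotation, which also gave gene positions.

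Signal ratios (knock out to wild type) were taken as log2. A gene was counted when its brightest probe set reached 500 on at least 1 array and was over 2-fold apart, after the study's minimum and fold. The authors' change p-values were not used here. With a single array for each genotype there is no replicate spread to test against, so p-values and intervals are not given. A fold against a signal under 100 is a bound with that signal set to 100. The number of arrays limits the precision.

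The genes named are all 10 of the set, and from every other list those over 2-fold apart plus the 2 brightest remaining genes that reached 100. Marker lists are given by counts, sums and the genes over 2-fold apart, with further markers named after their values were seen. Members and lists were chosen with earlier results of these data known. The genes around Ptgs2 were added after its values were seen. The counting steps were run on simulated arrays, with 3-fold and 4-fold changes planted in genes with a mean signal of 1000 or more. They recovered 98 of 100 genes at 3-fold and 99 of 100 at 4-fold. Smaller changes and weaker signals were not simulated in this way, so the run says nothing about them. Alternatives were median centring, quantile normalization, loess (fraction 0.3), scaling to 9 spike-in probe sets, signals raised to 100, 50 added to each signal, the mean over probe sets, leaving out probe sets ending in _x_at or _s_at, and other minimum signals and fold thresholds. Computations ran in Python 3.11.15 with pandas 2.3.3, numpy 2.4.6, matplotlib 3.10.9 and statsmodels 0.14.6.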

Additional observations from a re-analysis of the deposited data

How the results depend on the processing

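Of 69 log2 ratios of single prostaglandin genes under the alternatives, 62 lay within 1.5-fold of the reported ratio with no turn of sign, counting Ptger2 and Ptgfr, which were at 0 with signals raised to 100. Many could hardly leave that range, since median centring and spike-in scaling shift every gene alike by less than 1.5-fold. Other alternatives left the values of some genes unchanged. The count of 62 is therefore not a measure of robustness. The 5 that changed sign were Ptger4 with quantile normalization (-0.0095), median centring (-0.093) and scaling to the spike-ins (-0.38), and Ptger2 (-0.11) and Ptgfr (-0.27) with the last of these, all from ratios within 2-fold. The other 2 were of Ptgds, at 0 with signals raised to 100, by construction, and at 0.72 with 50 added. Ptgs2 ran from 1.15 to 1.65 and Ptgis from -1.44 to -0.90. The count of prostaglandin genes over 2-fold apart was 1 and became 2 with a minimum of 100, which adds Ptgis, and 0 at a threshold of 3-fold, and it was 1 under all other alternatives. The count of 1 other eicosanoid gene became 2 with spike-in scaling and at a threshold of 1.5-fold, 3 with a minimum of 100 (Cyp4f13 among them by its measured ratio against a low signal), and 0 with 500 on both arrays, at a minimum of 1000 and at 3-fold. The count of 1 Ptgs2 regulator or cAMP-responsive gene became 3 at 1.5-fold and 0 with spike-in scaling, at a minimum of 1000, with 500 on both arrays and at 3-fold. A different minimum or threshold alters a count by its construction, and the spike-in factor takes the same 0.39 from every log2 ratio. The cause of the other differences was not tested. Precision is limited by low signal, since 12 of the 19 probe sets of the prostaglandin genes were under 100 on both arrays. No paired analysis was possible because each genotype has a single array.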
